A study of Rattus norvegicus with 2 samples.

Results

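The miR-101, miR-26 and miR-148 families, the last of which includes miR-152, are small groups of paralogous miRNAs, that is, miRNAs whose genes arose by duplication and whose mature sequences still differ by only a few bases. Their 7 members, miR-101a-3p, miR-101b-3p, miR-26a-5p, miR-26b-5p, miR-148a-3p, miR-148b-3p and miR-152-3p, were taken by name from the 406 rat miRNAs in the table of reads, and all 7 were found there. The families were chosen by the reads of their paralogs in these same libraries, so the differences between the libraries are given as a description and carry no test.

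The study asked which miRNAs rat beta cells pass to high-density lipoprotein (HDL). INS-1 832/13 is a rat insulinoma line used as a model of the insulin-secreting beta cell. Native HDL (nHDL) from human plasma was kept for 24 h at 1 mg/mL either with INS-1 cells at 3 mM glucose (INS-1-nHDL) or in medium without cells (cell-free, cf-nHDL), and was recovered, per the sample labels, by immunoprecipitation of apoA-I, its main protein. Both groups therefore hold human nHDL, and they differ in contact with rat cells. Each was sequenced as 1 small RNA library from a pool of 3 samples, so that no difference between them has a replicate check.

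A miRNA guides the Argonaute protein to messenger RNAs mainly through its seed, bases 2 to 8 from the 5′ end, so paralogs that share a seed can bind largely the same targets, while the bases after the seed tell them apart in sequencing. The miR-101 and miR-26 families are known as repressors of EZH2, the histone methyltransferase of the Polycomb complex. The miR-148 family is known to repress the DNA methyltransferase DNMT1, and miR-148a-3p in liver also represses the LDL receptor and the cholesterol transporter ABCA1. Human cells make the same 3 families. In the human genome both miR-101 genes give 1 mature miR-101-3p, which has the sequence of rat miR-101a-3p, while miR-101b-3p is a name used in rat and mouse.

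The mature sequences, from RefSeq for the rat assembly GRCr8, are shown because every comparison rests on how little they differ. Capitals mark the seed.
miR-101a-3p: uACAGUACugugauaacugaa
miR-101b-3p: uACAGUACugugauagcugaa
miR-26a-5p: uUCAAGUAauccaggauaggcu
miR-26b-5p: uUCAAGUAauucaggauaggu
miR-148a-3p: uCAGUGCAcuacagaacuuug
miR-148b-3p: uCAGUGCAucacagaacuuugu
miR-152-3p: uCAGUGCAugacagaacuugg
With T for U, all 7 are the sequences in the deposited table. The seed is ACAGUAC in both miR-101 members, UCAAGUA in both miR-26 members and CAGUGCA in the 3 miR-148 members, and no other miRNA in the table had one of these seeds.

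The table places each mature miRNA at 1 site of the rat build that the study writes as rno5. miR-101a-3p lies at chr5:124050134-124050154 on the minus strand, and miR-101b-3p at chr1:254503453-254503473 on the plus strand. miR-26a-5p lies at chr8:126931607-126931628 and miR-26b-5p at chr9:81439838-81439858, both on the plus strand. miR-148a-3p is at chr4:145680972-145680992 on the minus strand, miR-148b-3p at chr7:142692786-142692807 and miR-152-3p at chr10:84512284-84512304, the last of these on the plus strand like miR-148b-3p. In the gene table of GRCr8, a later assembly, the genes of miR-26a and miR-26b overlap Ctdspl and Ctdsp1, which encode related small phosphatases acting on RNA polymerase II. The genes of miR-148b and miR-152 overlap Copz1 and Copz2, which encode related subunits of the COPI vesicle coat. The gene of miR-101b overlaps Rcl1, that of miR-101a overlaps the uncharacterized locus LOC120102934, and that of miR-148a overlaps none.

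The cf-nHDL library held 6585 miRNA reads and the INS-1-nHDL library 18008. A count of 0 thus allows at most 0.0456% of the miRNA reads in the first library and 0.0167% in the second, taking 3 reads as the limit. Reads were amplified by PCR without molecular identifiers, so limits and intervals cover counting error only. Reads were scaled by DESeq2 size factors, whose ratio of INS-1-nHDL to cf-nHDL was 1.98, so that a fold change of 1 means 1.98 reads on INS-1-nHDL for each read on cf-nHDL. The miRNAs that mark the sources of the RNA moved between the libraries as follows. The 5 beta cell and neuroendocrine markers, of which 4 were in the table, summed to 244 reads on cf-nHDL against 11378 on INS-1-nHDL, nearly all of them from miR-375-3p (231 and 11219). The 3 red cell markers, of which 2 were in the table, had 26 and 5 reads in sum, all from miR-451-5p. The 3 platelet and myeloid markers had 8 and 0 reads in sum, and the liver marker miR-122-5p had 0 in both libraries.

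The 7 paralogs together had 112 reads on cf-nHDL, 1.70% of the miRNA reads there (Wilson 95% interval 1.42 to 2.04%), and 72 reads on INS-1-nHDL, 0.400% (0.318 to 0.503%). miR-375-3p alone had 11219 of the 18008 reads on INS-1-nHDL, which lowers the share of every other miRNA there. The summed fold change of the 7 paralogs on INS-1-nHDL against cf-nHDL was 0.324, with an exact 95% interval of 0.238 to 0.440. This sum was not recomputed under other scalings. Of the 7, 5 reached 5 reads in either library, and miR-148b-3p and miR-152-3p did not. Of these 5, miR-101a-3p was above 1.5-fold on INS-1-nHDL, and the other 4 were below 1/1.5-fold. Over all 81 miRNAs with at least 5 reads in a library, 49.4% were above 1.5-fold and 39.5% below 1/1.5-fold. The median log2 fold change was -2.86 over these 5 members and 0.23 over all 81 miRNAs, with bounds taken at their value. The red cell and the platelet and myeloid markers were lower on INS-1-nHDL as well, and their part in the lower reads of the members was not tested.

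**Figure D1:**
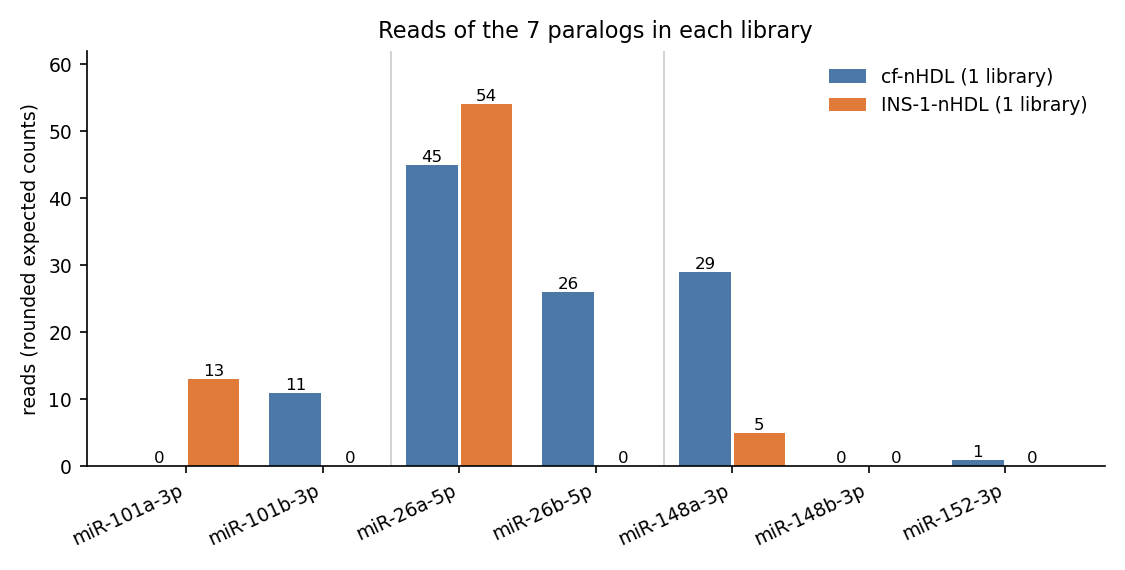
Reads of each paralog in the cf-nHDL and INS-1-nHDL libraries, as rounded expected counts from 1 library each, with the 3 families separated by grey lines. miR-101a-3p (0 and 13 reads) and miR-101b-3p (11 and 0) were each read in 1 library only, and miR-26b-5p fell from 26 reads to 0 beside miR-26a-5p (45 and 54).

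The miR-101 paralogs were read in opposite libraries. On cf-nHDL, miR-101a-3p had 0 reads and miR-101b-3p had 11. On INS-1-nHDL, miR-101a-3p had 13 reads and miR-101b-3p had 0. No library held both, so miR-101a-3p made up 0 of the 11 miR-101 reads on cf-nHDL, where a count of 0 allows up to 27.3%, and 13 of the 13 on INS-1-nHDL (exact 95% interval 75.3 to 100%). The paralogs differ by the single substitution A16G, read from miR-101a-3p to miR-101b-3p and counted from the 5′ end, which lies outside the seed and is in capitals here.
miR-101a-3p: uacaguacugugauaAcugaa
miR-101b-3p: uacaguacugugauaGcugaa
The form read on cf-nHDL, which never met rat cells, was thus the one that is named in rat and mouse. The form read on INS-1-nHDL was the one that human and rat share. Whether a read came from human or rat RNA was not tested.

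With 3 reads in place of 0, miR-101a-3p was 2.18-fold higher on INS-1-nHDL (the exact 95% interval starts at 1.54). miR-101b-3p was 7.28-fold lower, with an interval for the fold change that ends at 0.201. These values, called bounds here, leave out the counting error of the other count, which the intervals include. They also move with the scaling. By total miRNA reads the bound of miR-101a-3p was 1.58-fold. By the total without miR-375-3p, the fold change of miR-101b-3p was 0.255. Had miR-101b-3p kept a fold change of 1, its 11 reads on cf-nHDL would stand for 21.8 reads on INS-1-nHDL. The fold change of miR-101a-3p was 15.9 times that of miR-101b-3p with 3 reads in place of each 0. That ratio compares the members within each library, so that the scaling between the libraries cancels, and its exact 95% interval starts at 16.4. In the family sum this difference was not visible, since miR-101a-3p and miR-101b-3p together had 11 and 13 reads, a fold change of 0.596 whose interval of 0.246 to 1.47 holds 1. Scaled by the total without miR-375-3p, the sum was at 1.11.

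The precursors of the miR-101 paralogs are more distinct than their mature 3p arms, as the hairpins from RefSeq show with the mature 3p arm in capitals.
Mir101a: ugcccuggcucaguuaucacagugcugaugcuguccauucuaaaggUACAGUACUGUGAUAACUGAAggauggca
Mir101-2: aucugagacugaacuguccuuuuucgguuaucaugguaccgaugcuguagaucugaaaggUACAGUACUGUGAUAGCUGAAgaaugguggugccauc
Mir101-2 is the gene of miR-101b-3p. The 5p arm, which would tell the hairpins apart at many bases, gave no further information, since miR-101a-5p had 0 reads in both libraries and miR-101b-5p was not among the miRNAs analysed here.

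The miR-26 family had the most reads of the 3. miR-26a-5p was read 45 times on cf-nHDL and 54 times on INS-1-nHDL, which is rank 15 and rank 21 among the miRNAs of each library. After scaling these were 63.4 and 38.3 normalized reads, a fold change of 0.605 (exact 95% interval 0.400 to 0.919). Its reads rose while its scaled level fell, and when the libraries were instead scaled by their total without miR-375-3p, its fold change was 1.12.

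miR-26b-5p moved further. It was read 26 times on cf-nHDL, rank 22 there, and not on INS-1-nHDL (0 reads). It was 17.2-fold lower on INS-1-nHDL with 3 reads in place of 0, and the interval of its fold change ends at 0.0768. Scaled by the total without miR-375-3p, its fold change was 0.108, again with 3 reads in place of 0. At a fold change of 1, its 26 reads would stand for 51.6 reads on INS-1-nHDL.

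miR-26b-5p thus went from 26 of the 71 miR-26 reads on cf-nHDL, 36.6% (exact 95% interval 25.5 to 48.9%), to 0 of 54 on INS-1-nHDL, where a count of 0 allows up to 5.56%. The fold change of miR-26a-5p was 10.4 times that of miR-26b-5p with 3 reads in place of 0, and the exact interval of this ratio starts at 7.23. The family sum of 71 and 54 reads had a fold change of 0.383 (0.264 to 0.554). Compared base by base, the paralogs differ by C11U and C21U, read from miR-26a-5p to miR-26b-5p, and by the last base, which only miR-26a-5p has. The differing bases are in capitals.
miR-26a-5p: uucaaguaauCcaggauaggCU
miR-26b-5p: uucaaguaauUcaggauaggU
The opposite arm miR-26b-3p had 0 reads in both libraries, and miR-26a-3p was not among the miRNAs analysed here.

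In the miR-148 family a single member carried nearly all reads. miR-148a-3p was read 29 times on cf-nHDL, rank 18, and 5 times on INS-1-nHDL, rank 66. Its fold change was 0.0869 (exact 95% interval 0.0263 to 0.227), so it was 11.5-fold lower. Scaled by the total without miR-375-3p, its fold change was 0.161 and that of the family sum 0.156. At a fold change of 1, its 29 reads would stand for 57.5 reads on INS-1-nHDL. miR-152-3p had a single read, on cf-nHDL, and miR-148b-3p had 0 in both, so neither has a fold change. The 5p arms of all 3 genes also had 0 reads.

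Whether the miR-148 paralogs moved apart could not be seen at this depth. miR-148a-3p made up 29 of 30 family reads on cf-nHDL, or 96.7% (exact 95% interval 82.8 to 99.9%), and 5 of 5 on INS-1-nHDL (47.8 to 100%). The ratio of the fold change of miR-152-3p to that of miR-148a-3p has an exact interval from 0 to 234. The family sum, 30 and 5 reads, had a fold change of 0.0840 (0.0254 to 0.219). Compared base by base, miR-148a-3p differs from miR-148b-3p by C9U, U10C and an added last base, which only miR-148b-3p has. It differs from miR-152-3p by C9U, U10G and U20G, so in both the first difference follows directly after the seed.

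**Figure D2:**
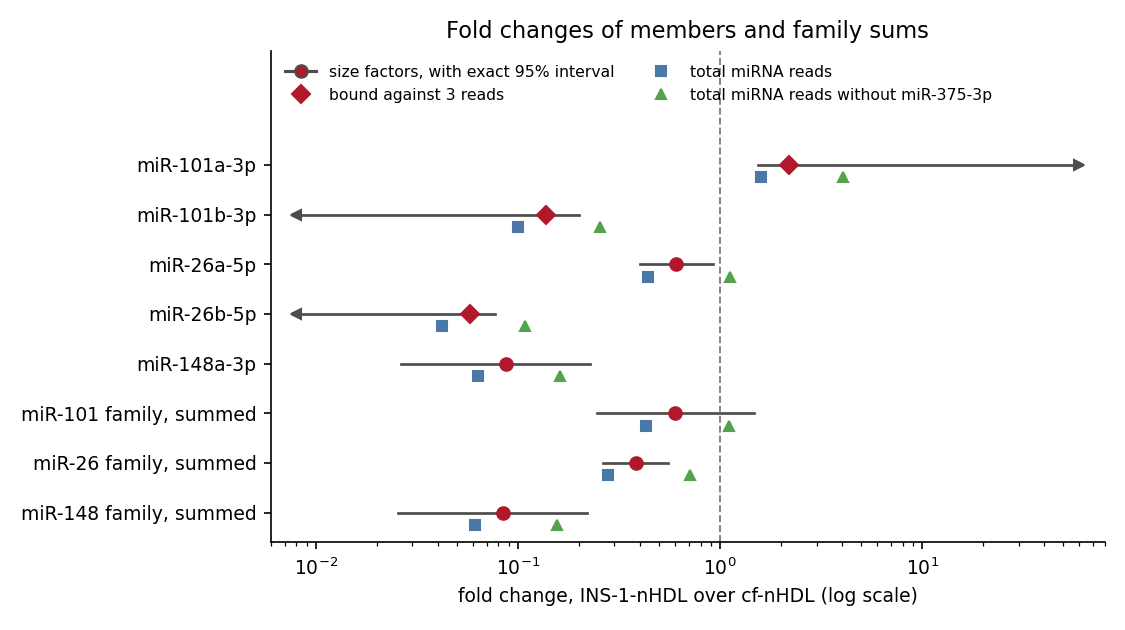
Fold changes of INS-1-nHDL over cf-nHDL (log axis) for the 5 members with a value or bound and for the 3 family sums, with exact 95% intervals for counting error (lines; arrowheads where an interval has no end in the plot) and the values under other scalings (squares and triangles). miR-26b-5p and miR-101b-3p stay below 1 under each scaling drawn and miR-101a-3p above it, while miR-26a-5p goes from 0.605 to 1.12 and the miR-101 sum from 0.596 to 1.11.

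Set among each other, the 3 family sums fell in the order miR-148 (0.0840), miR-26 (0.383) and miR-101 (0.596). The interval of miR-148 ended at 0.219, below the start of the other two, and the intervals of miR-26 and miR-101 overlapped. The miRNAs outside the families with a fold change nearest to these sums, among those with at least 50 reads over both libraries, were found from the log2 difference. For miR-26 they were miR-21-5p, with 508 and 396 reads and a fold change of 0.393, and miR-423-5p, with 28 and 23 reads and 0.414. For miR-148 they were miR-141-3p, with 85 and 17 reads and a fold change of 0.101, and miR-10a-5p, with 638 and 187 reads and 0.148. For miR-101 they were miR-27b-3p, with 254 and 343 reads and a fold change of 0.681, and miR-30e-5p, with 28 and 47 reads and 0.846. With 2 libraries, this likeness rests on a single ratio for each miRNA.

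Reads in 1 library and none in the other were uncommon among the miRNAs of cf-nHDL. Of the 44 miRNAs that reached 10 reads on cf-nHDL, 3 had 0 on INS-1-nHDL, which is 6.82%. These 3 were miR-26b-5p with 26 reads, miR-186-5p with 14 and miR-101b-3p with 11. In the other direction, 55 miRNAs reached 10 reads on INS-1-nHDL, and 13 of these, or 23.6%, had 0 on cf-nHDL, miR-101a-3p among them. A fold change of 1 means 1.98 reads on INS-1-nHDL for each read on cf-nHDL. A count of 0 is thus reached more easily on cf-nHDL, and 6.82% and 23.6% are not on a like scale. This count was made after the reads of the members were seen. The members were chosen by those same reads, so their presence in it is no result.

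**Figure D3:**
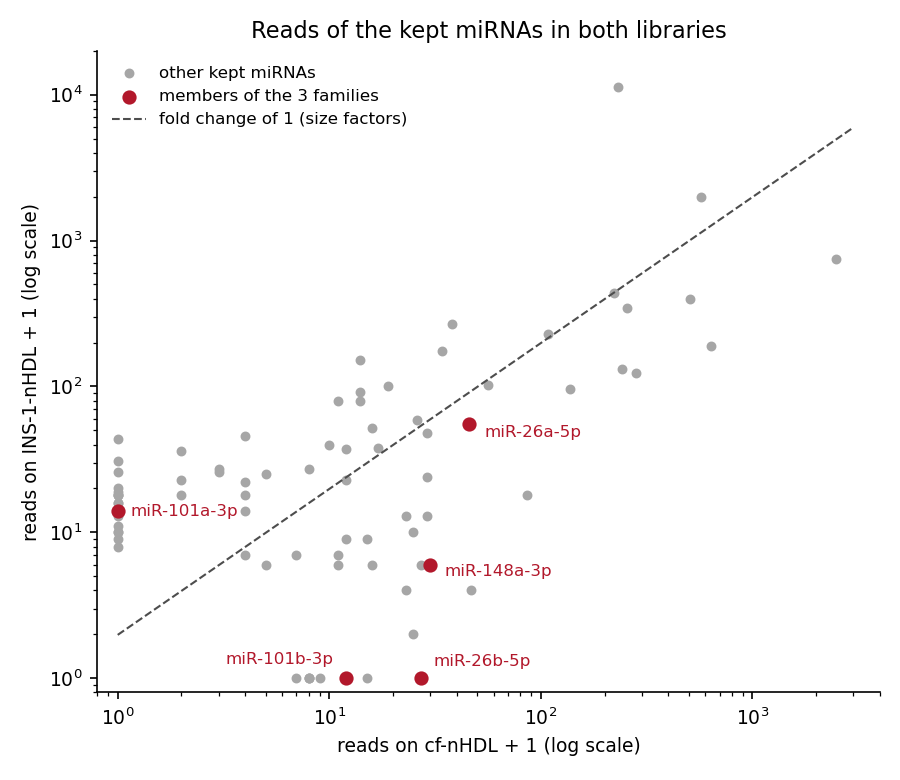
Reads on cf-nHDL (x axis) and INS-1-nHDL (y axis), each plus 1 on a log scale, of the 81 miRNAs with at least 5 reads in a library. The members (red) lie below the dashed line of equal scaled reads except miR-101a-3p, which lies on the left edge with 0 reads on cf-nHDL, and miR-26b-5p and miR-101b-3p lie on the bottom edge with 0 reads on INS-1-nHDL.

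A read that matches several near-identical miRNAs may be counted in parts. The table holds decimals at 11 of the 406 miRNAs, which the sources used here do not explain, and parts of reads can also add up to whole numbers. None of the 7 members had decimals. miR-101a-3p was at 0 on cf-nHDL, and miR-101b-3p and miR-26b-5p were at 0 on INS-1-nHDL. The part of divided reads in the differences was not tested. The nearest other sequence in the table was 1 base away for the miR-101 members, 2 edits (bases changed, added or removed) away for the miR-26 members and 3 edits away for each miR-148 member, and in every case it was a paralog of the same family.

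The place of the difference was compared between pairs with and without decimals, after the reads were seen. Among miRNAs with reads, 12 pairs differed by 1 edit. In the 5 of these pairs in which both miRNAs had decimals, 16 to 21 bases were shared from the 5′ end before the difference. In the 7 pairs without decimals at both, 8 to 15 bases were shared. Some of these pairs held counts near 0, such as miR-181c-5p (0 and 1 reads on cf-nHDL and INS-1-nHDL) and miR-29c-3p (1 and 0). miR-101a-3p and miR-101b-3p shared 15, the most among these 7, and miR-26a-5p and miR-26b-5p shared 10. The study kept reads over 16 nt, and whether these reads tell the paralogs apart was not tested. The alignment allowed 1 mismatch, which is the whole difference within the miR-101 pair, and its part in these counts was not tested.

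**Figure D4:**
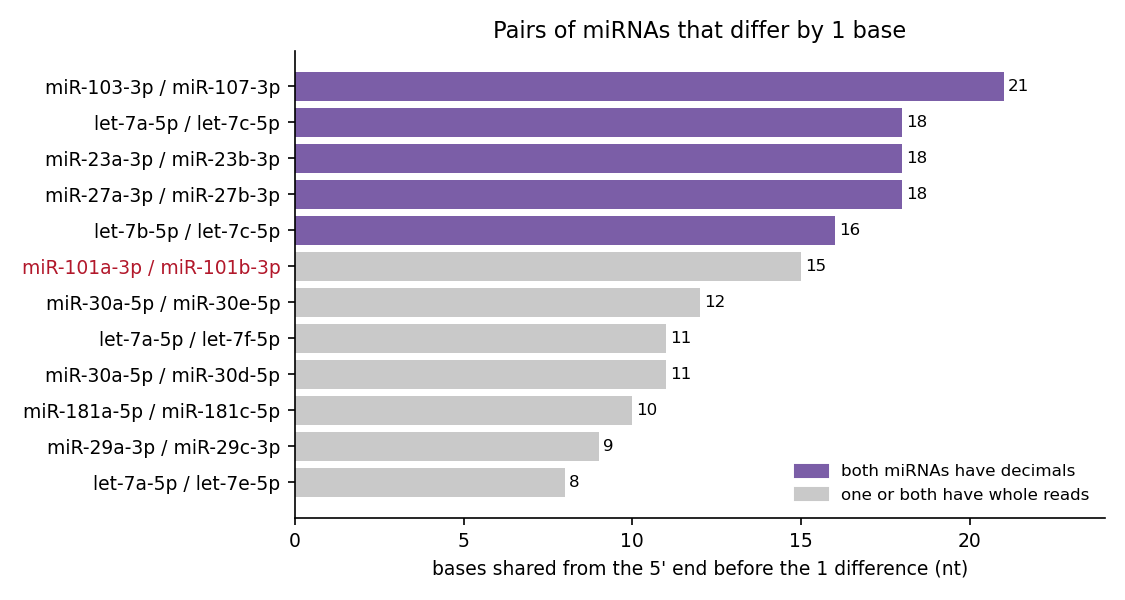
Bases shared from the 5′ end before the difference (nt) in the 12 pairs of miRNAs with reads that differ by 1 edit. The 5 pairs in which both miRNAs have decimals (purple) share 16 to 21 bases, and the 7 others (grey), miR-101a-3p and miR-101b-3p among them with 15, share 8 to 15.

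Paralogs of other families also differed in these libraries. Pairs were formed from miRNAs of the same number and arm but another letter, within 4 edits of each other and each with at least 5 reads in a library. There were 27 such pairs outside the 3 families, built from 18 miRNAs, and 20 of them were let-7 pairs that share members. The exact interval of the ratio of fold changes left out 1 in 15 of the 27, which is 55.6%. It also left out 1 in the miR-101 and the miR-26 pair. Those pairs were chosen by these same reads, so they cannot be compared with that share or with the distances below. The distance between log2 fold changes had a median of 2.07 over the 27 pairs, with 3 reads in place of 0. With the same setting it was 3.99 for miR-101 and 3.38 for miR-26. The 3 largest distances with at least 20 reads for each member were those of let-7g-5p from let-7b-5p (6.78), from let-7f-5p (5.46) and from let-7i-5p (5.33), all with 3 reads for let-7g-5p on INS-1-nHDL and with let-7b-5p rounded from decimals.

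**Figure D5:**
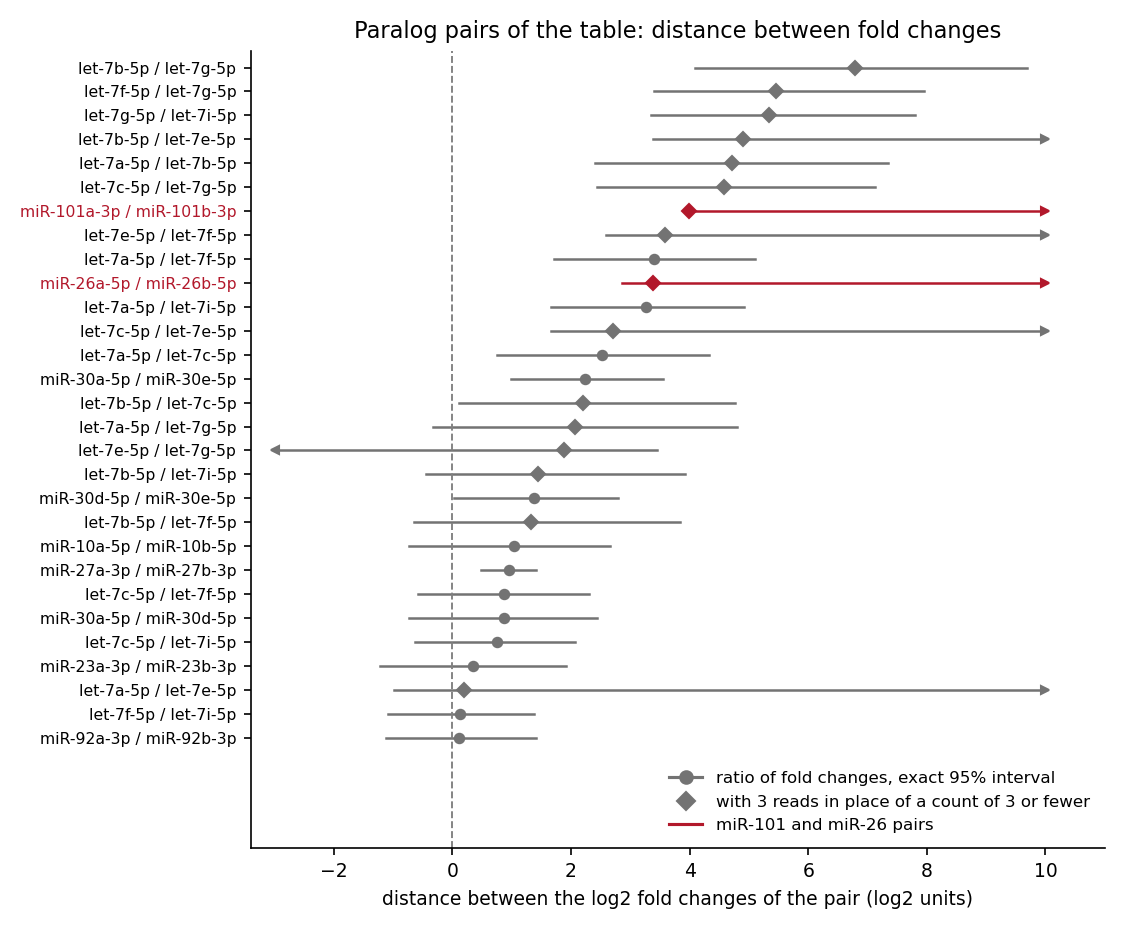
Distance between the log2 fold changes of 29 paralog pairs, with exact 95% intervals for counting error (arrowheads where an interval has no end) and diamonds where 3 reads stand for a count of 3 or fewer. The miR-101 and miR-26 pairs (red) are drawn at their lower bounds of 3.99 and 3.38, and their intervals have no upper end.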

How the data were processed

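Per the study's methods, adapters were trimmed by Cutadapt, and reads over 16 nt were aligned to the rat genome (rno5) with Bowtie 1.1.2, allowing 1 mismatch. The authors deposited expected counts of each mature miRNA, not normalized and with decimals at 11 miRNAs. The authors also deposited whole-number counts of 81 miRNAs beside their own DESeq2 1.18.1 comparison (base mean, fold changes, p-values), whose columns were not used.

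Expected counts were rounded to whole reads, and the 81 miRNAs that reached 5 reads in either library entered the comparisons. Size factors came from DESeq2 1.42.0 in R 4.3.3. With 1 library per condition no test was made. Fold changes have exact (Clopper-Pearson, scipy 1.17.1) 95% intervals given the sum of both counts, and ratios of fold changes have exact intervals of the conditional odds ratio. Counts of 3 or fewer were taken as 3 and give bounds, and no fold change is given where both libraries had 3 or fewer. Intervals were tried only on simulated Poisson counts of known depth, the model they assume. That simulation held no PCR duplication, size factor error or choice of members by their reads. Alternatives were edgeR 4.0.16 TMM and total reads among others.

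The members and lists were chosen with earlier results of these data known. The miRNAs named were the members, the other arms of their hairpins, miRNAs that share a member's seed, for each family the 2 miRNAs outside it with at least 50 reads and the nearest log2 fold change, and the 3 other paralog pairs farthest apart with at least 20 reads for each member. miR-375-3p was the reference for INS-1 cells. miR-186-5p, miR-451-5p and the miRNAs of the pairs with 1 edit were named after their values were seen.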

Additional observations from a re-analysis of the deposited data

How the results depend on the processing

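No paired analysis was possible because there is a single library on each side, which also leaves nothing to omit. The ratios of fold changes within the miR-101 and miR-26 pairs do not depend on the scaling, and a pseudocount of 1 read gave 168 and 32.3 in place of the bounds of 15.9 and 10.4. Scaled by total miRNA reads without miR-375-3p, the miR-26 sum was 0.712 in place of 0.383, miR-26a-5p reversed from 0.605 to 1.12 and the miR-101 sum crossed 1 from 0.596 to 1.11, within its interval, while miR-101b-3p (0.255) and miR-26b-5p (0.108) stayed below 1. Taking the most read member alone in place of the sum gave a bound of 2.18 for miR-101, by miR-101a-3p, and 0.605 for miR-26. By the total without miR-375-3p, 48 miRNAs were above 1.5-fold and 26 below 1/1.5-fold, and by total miRNA reads 36 and 34. With a minimum of 20 reads in either library, 23 miRNAs were above 1.5-fold in place of 40 and 18 below 1/1.5-fold in place of 32. With at least 1 read, 53 were below it. With at least 20 reads for each paralog, the interval left out 1 in 8 of 16 other pairs in place of 15 of 27, since fewer pairs entered. The median distance between log2 fold changes was then 1.35 in place of 2.07, and it was 2.22 for other pairs within 2 edits. Of the 66 values recomputed under alternatives, 56 stayed within the interval of the value given or within 1.5 times the count. Rounding changed none of the values of the members, which are whole in the table. The miR-101 pair rests on 24 reads in all, and the counts of miR-148b-3p and miR-152-3p were too low for a fold change.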

Other observations

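Outside the 3 families, 8 of the paralog pairs compared differ by 1 edit. In 4 of them both miRNAs had decimals, and the exact 95% interval of the ratio of fold changes left out 1 in 3 of these. The fold change of let-7c-5p was 5.73 times that of let-7a-5p (the interval starts at 1.68) and 0.218 times that of let-7b-5p (0.0369 to 0.924). The latter is a bound, since let-7b-5p had 2.6 expected reads on cf-nHDL, taken as 3. miR-27b-3p was at 1.93 times miR-27a-3p (1.40 to 2.66), and miR-23b-3p at 1.27 times miR-23a-3p (0.428 to 3.78). In the other 4 pairs one or both miRNAs had whole reads, and the interval left out 1 in 2 of these. The fold change of let-7f-5p was 10.5 times that of let-7a-5p (3.27 to 34.4), and that of miR-30e-5p was 0.212 times that of miR-30a-5p (0.0850 to 0.504). That of miR-30d-5p was 0.549 times that of miR-30a-5p (0.184 to 1.67). That of let-7e-5p, with 0 reads on INS-1-nHDL, was 0.875 times that of let-7a-5p with 3 reads in place of 0 (0 to 1.98). Both of these intervals hold 1. These pairs share members, and no test compared the groups of pairs.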
